A study of Mus musculus with 4 samples.

Results

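The genes described here are the Lgr receptors (Lgr4, Lgr5 and Lgr6), the R-spondins (Rspo1, Rspo2, Rspo3 and Rspo4), the ubiquitin ligases Znrf3 and Rnf43, and Procr, 10 genes of the 19938 that had a probe set annotated to exactly 1 gene. They were chosen by name as the stem cell arm of Wnt signalling, and each was read by 1 probe set. Expression was measured on 4 single-colour Affymetrix arrays of physically isolated mouse terminal end buds, the bulbous tips from which the pubertal mammary ducts grow, in female mice of strain C57/BL6. The 2 control arrays held RNA pooled from 2 mice each, of genotype Ovol2flox/+. The protocol gives these mice as with or without K14-Cre, and the sample labels give them as without Cre. The 2 knockout arrays held RNA pooled from 3 mice each, of genotype Ovol2flox/-;K14-Cre, so these mice carried 1 constitutively null allele in every cell and lost the other where the keratin 14 promoter, active in basal epithelium and skin, had driven Cre recombinase. A floxed Ovol2 allele was thus present in both groups. Mice were littermates, and the age is given as 4.5 weeks in the sample labels and as 24 to 25 days in the series text, where the stated purpose was to find primary changes while the buds still looked alike.

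R-spondins are secreted proteins that bind Lgr4, Lgr5 or Lgr6 on the cell surface and draw the membrane ubiquitin ligases Znrf3 and Rnf43 away from the Frizzled receptors. Those ligases otherwise mark Frizzled for removal, so an R-spondin raises the response of a cell to Wnt ligands. Lgr5, Znrf3 and Rnf43 are also known as target genes of Wnt signalling through beta-catenin. In the mammary gland, Lgr5 and the protein C receptor gene Procr have each been used to mark basal stem cells, and Rspo1 acts there together with Wnt4. Procr is also a gene of vascular endothelium.

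Ovol2, the targeted gene, encodes a zinc finger repressor of the epithelial-mesenchymal transition. It read 8.05 and 8.31 on the control arrays, against 7.85 and 7.73 on the knockout arrays on the log2(signal + 16) scale, on which all levels and differences below are given unless a linear signal is named. Its log2 difference, knockout minus control, was -0.39 ± 0.16, which was not past the threshold (adjusted p = 0.17 from limma). Where its probes lie relative to the deleted part is not known here, so this value does not measure the deletion. The knockout mean of Ovol2 lay under the signal filter (log2 7.97), so Ovol2 was tested through its control signal. Array medians lay between 252 and 272 linear signal units. Nothing in the labels says more about the pools than that they were biological replicates. The p-values rest on the spread between the 2 pools of a group, moderated by a variance prior taken from all tested genes. Values after ± are standard errors of the log2 difference with n = 2 arrays per group.

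Of the 10 genes, Lgr5 was the one that rose in the knockout. Its relatives Lgr4 and Lgr6, the ligases Znrf3 and Rnf43, the ligand Rspo1 and the stem cell marker Procr were tested and did not pass the threshold, an adjusted p of 0.05. Rspo2, Rspo3 and Rspo4 lay under the signal filter and were not tested. The count of 1 among 7 tested genes stands beside 10.7% of all 11963 tested genes that passed the threshold in either direction, 6.29% that passed as higher in the knockout and 4.45% that passed as lower, so the share among these genes is no result about them as a group. The median log2 difference was -0.0026 over all 10 genes, 0.09 over the 7 tested genes and -0.022 over all genes tested. The control means of 2 of the 7, Rspo1 and Procr, lay under the filter level, so these entered the tests through their knockout signal.

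**Figure D1:**
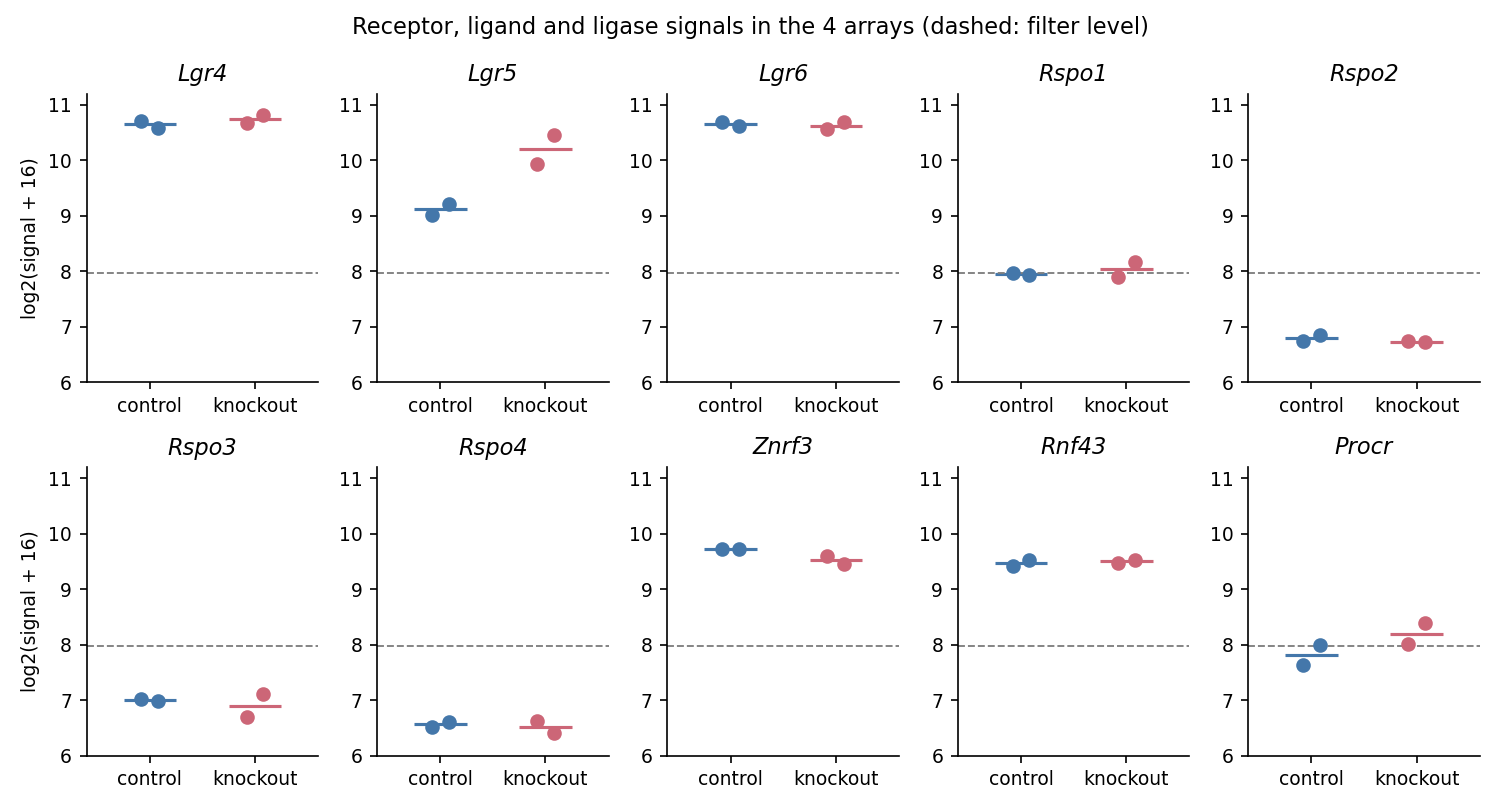
Level of each gene in each array as log2(signal + 16) after quantile normalization. Points are arrays, short lines are group means of 2 arrays, and the dashed line is the filter level of 7.97. Lgr5 is the gene whose groups stand far apart, Rspo2, Rspo3 and Rspo4 lie under the filter in all 4 arrays, and heights are not compared between genes because each probe set binds with its own strength.

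Of the 3 receptors, 1 rose. Lgr5 encodes the receptor that marks stem cells of the gut and hair follicle as well as a subset of mammary basal cells. Its deposited linear signal was 484 and 578 for the control pools, against 988 and 1370 for the knockout pools. After normalization it read 9.01 and 9.21 on the control arrays, against 9.93 and 10.46 on the knockout arrays. Both knockout arrays lay above both controls, by more than the controls differed from each other, and knockout replicate 2 was the higher. Both knockout arrays lay above both controls for 26.4% of tested genes, and the groups did not overlap on either side for 56.3%. The log2 difference was 1.08 ± 0.15 (95% CI 0.74 to 1.42), a 2.11-fold rise with an interval from 1.67-fold to 2.67-fold (limma, adjusted p = 0.00262). With any 1 array left out the difference stayed between 0.81 and 1.35. A fit that lacks a knockout array holds no spread between the knockout pools, so it does not check the call against that spread.

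The call for Lgr5 depended on how the variance was modelled. It was lost when limma's variance prior had no trend with signal (adjusted p = 0.0619), with a robust prior (adjusted p = 0.0782) and with a robust prior and no trend (adjusted p = 0.0626). Without the trend 1.57% of tested genes passed, with a robust prior 12.4%, and with a robust prior and no trend 1.55%. The adjusted p of Lgr5 ranged from 1.0e-35 to 0.0782 over 16 alternatives, and the lowest values came from fits with an infinite prior, in which each variance is read off the trend.

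Lgr4, a broadly expressed receptor of the family that is needed for normal mammary development, read 10.71 and 10.59 on the control arrays, against 10.68 and 10.81 on the knockout arrays. Its groups overlapped, with knockout replicate 1 between the controls. The log2 difference was 0.10 ± 0.07, with a 95% CI from -0.06 to 0.25 (limma, adjusted p = 0.434), an interval that reaches a 1.19-fold rise. With 1 array left out the value ranged from 0.03, without knockout replicate 2, to 0.16, without knockout replicate 1, and was 0.037 without control replicate 2 and 0.16 without control replicate 1. Lgr6, a receptor of epithelial progenitors in skin, read 10.69 and 10.62 on the control arrays, against 10.56 and 10.68 on the knockout arrays, and its groups also overlapped. The difference was -0.03 ± 0.07, with a 95% CI from -0.18 to 0.12 (limma, adjusted p = 0.803), and its sign turned without control replicate 1 (0.0068) or knockout replicate 1 (0.027).

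Set against its relatives within each array, the Lgr5 signal still stood apart between groups. Relative to Lgr4 and to the control mean, Lgr5 was at -0.16 and 0.16 on the control arrays and at 0.78 and 1.18 on the knockout arrays, a log2 difference of 0.98. Relative to Lgr6 the same difference was 1.11. Both are larger than the spread of the controls, which was 0.325 for the first of these ratios and 0.28 for the second. The ratio was not put to a test: an exact two-sided permutation test of 2 arrays against 2 cannot give a p under 0.333. The ratio shows unequal change and no more.

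**Figure D2:**
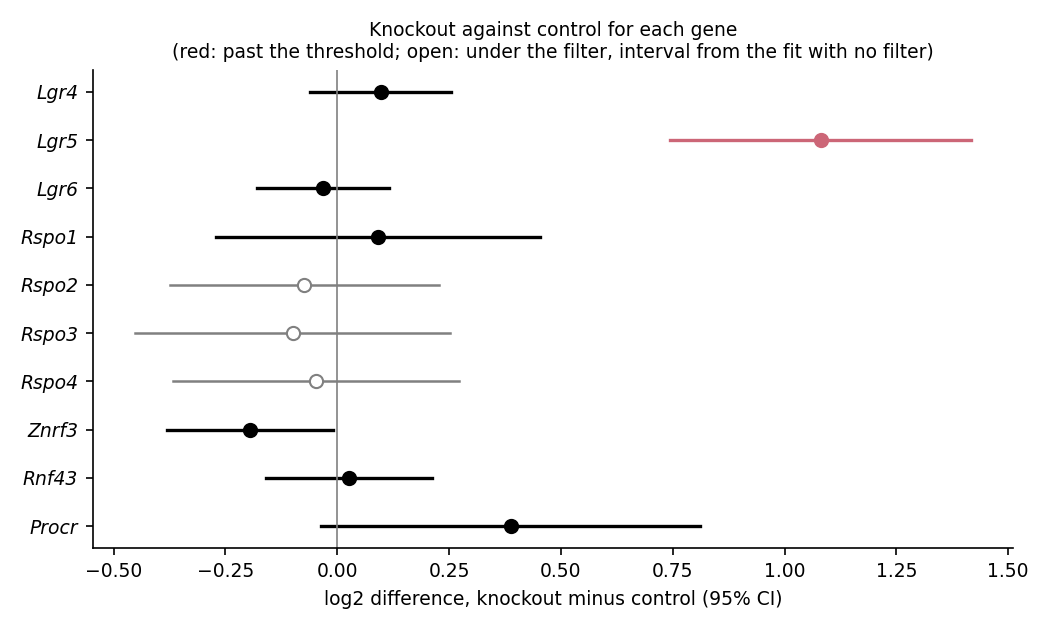
Log2 difference, knockout minus control, with its 95% confidence interval from limma. Lgr5 in red is the gene past the threshold. Open symbols are Rspo2, Rspo3 and Rspo4, which were under the filter and whose intervals come from the fit with no filter. The intervals of Lgr4, Lgr6 and Rnf43 are short and hold 0, that of Procr is the widest and also holds 0, and that of Znrf3 lies just below 0.

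Among the ligands, Rspo1, the R-spondin known from luminal mammary cells, lay at the filter level, with its control mean just under it. It read 7.96 and 7.93 on the control arrays, against 7.90 and 8.17 on the knockout arrays, so that its groups overlapped. The log2 difference was 0.09 ± 0.16, with a 95% CI from -0.27 to 0.45 (limma, adjusted p = 0.764). The sign turned without knockout replicate 2, to -0.045. An Rspo1 rise of up to 1.37-fold lies within this interval.

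The other ligands gave dim signals in every array. Rspo2, which acts in limb and lung development, read 6.74 and 6.86 on the control arrays, against 6.73 and 6.72 on the knockout arrays. Rspo3, a ligand made by stromal and endothelial cells in several organs, read 7.03 and 6.98 on the control arrays, against 6.71 and 7.10 on the knockout arrays. Rspo4, known from nail development, read 6.52 and 6.61 on the control arrays, against 6.62 and 6.41 on the knockout arrays. The knockout arrays of Rspo2 both lay just below the controls, while those of Rspo3 and Rspo4 overlapped with them. With no filter, a fit in which 6.06% of 19938 genes passed, the log2 differences were -0.07 ± 0.14 for Rspo2, -0.10 ± 0.16 for Rspo3 and -0.05 ± 0.14 for Rspo4 (limma, adjusted p from 0.78 to 0.886). No detection calls were used, so whether these signals exceed background is unknown.

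The 2 ligases that R-spondins act upon showed no call. Znrf3 read 9.71 and 9.73 on the control arrays, against 9.60 and 9.45 on the knockout arrays. Both knockout arrays were below both controls, as for 29.9% of tested genes. The log2 difference was -0.19 ± 0.08, with a 95% CI from -0.38 to -0.0097 and an unadjusted p of 0.041 by limma. Among all 11963 tested genes, 3051 had an unadjusted p under 0.05. Znrf3 did not pass after adjustment (limma, adjusted p = 0.173). It passed as lower without knockout replicate 1 alone of the alternatives (log2 difference -0.27, adjusted p = 0.0422, in a fit where 19.6% of tested genes passed), and it was -0.12 without knockout replicate 2. Rnf43 read 9.43 and 9.53 on the control arrays, against 9.47 and 9.53 on the knockout arrays, and its groups overlapped. Its difference was 0.03 ± 0.08, with a 95% CI from -0.16 to 0.21 (limma, adjusted p = 0.872), and the sign turned without control replicate 1 (-0.024) or knockout replicate 2 (-0.0054).

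Procr encodes the endothelial protein C receptor, which holds protein C on the cell surface for its activation. Its linear signal was 189 and 229 for the control pools, against 242 and 326 for the knockout pools. On the log2 scale it read 7.63 and 7.99 on the control arrays, against 8.02 and 8.38 on the knockout arrays. Both knockout arrays lay above both controls, but the nearest pair, control replicate 2 and knockout replicate 1, differed by far less than the arrays within either group. Its control mean was under the filter level and it entered the tests through its knockout signal, by a margin of 0.037 in the mean over all arrays. The log2 difference was 0.39 ± 0.19, with a 95% CI from -0.04 to 0.81 (limma, adjusted p = 0.239). It was 0.21 without control replicate 1 and 0.20 without knockout replicate 2, and the adjusted p ranged from 0.0669 to 0.792 over 15 alternatives.

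Promoter windows (build GRCm38.p6), set from 250 bases before to 50 after a promoter start, were matched for 6 of the 10 genes, in 7 windows. Those of Lgr5, Rspo2, Rspo3 and Znrf3 were not among them. The start used for a window was not always the first RefSeq start of the gene. The Rspo4 window and an Rnf43 window (from chr11:87699647) held 0 bases before that first start. Shown here are the stretches before the first RefSeq start of Procr, the gene besides Lgr5 whose knockout arrays were both higher, and of Lgr4, a receptor whose groups overlapped, both on the + strand and written 5′ to 3′ in lower case. They cover chr2:155750967-155751124 for Procr (158 bases, 56.3% G or C) and chr2:109917397-109917646 for Lgr4 (250 bases, 55.6% G or C).
Procr: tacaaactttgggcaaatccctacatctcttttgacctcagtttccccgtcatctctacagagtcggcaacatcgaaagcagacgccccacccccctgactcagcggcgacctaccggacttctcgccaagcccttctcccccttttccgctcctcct
Lgr4: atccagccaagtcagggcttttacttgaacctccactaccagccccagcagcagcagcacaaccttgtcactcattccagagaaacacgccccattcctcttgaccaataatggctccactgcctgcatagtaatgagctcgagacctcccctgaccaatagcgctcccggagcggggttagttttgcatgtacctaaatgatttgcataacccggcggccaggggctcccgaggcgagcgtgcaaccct
Nothing is in capitals because no searched motif was found. The whole windows were searched on both strands for CTTTGAT, bound by TCF and LEF factors, for CCGTTA, bound by Ovol factors, and for CAGGTG, an E-box bound by Zeb and Snail factors. The 7 windows held 0 matches to each. Among all 32851 promoter windows, 3.73% held CTTTGAT, 2.76% held CCGTTA and 20.2% held CAGGTG. These counts say only that the letters are not in these windows.

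The rest of the Wnt pathway was read from lists of ligands, receptors, inhibitors, targets and transducers, with 91 distinct genes when genes of the gut stem cell and protein C lists are included. Of the 67 that could be tested, 7 rose, 5 fell and 55 did not pass, beside 10.7% of all tested genes. Of 19 Wnt ligands, 10 were tested. Wnt4, the progesterone-responsive ligand that acts with Rspo1 in the gland, read 9.93 and 10.27 on the control arrays, against 10.50 and 10.60 on the knockout arrays, and rose by 0.45 ± 0.10 on the log2 scale (limma, adjusted p = 0.0215). Wnt6 fell by 0.63 ± 0.13 (from 8.86 and 8.87 to 8.37 and 8.11), and 8 ligands did not pass. The median log2 difference of the tested ligands was -0.15 (-0.11 over all 19), against -0.022 over all genes tested. The Wnt4 value was 0.28 without control replicate 1 and did not pass.

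Of 14 tested Frizzled and co-receptor genes, the proteins that Znrf3 and Rnf43 act on among them, 1 rose, 1 fell and 12 did not pass. Fzd4 rose by 0.28 ± 0.07 and Ror2, a receptor of non-canonical Wnt signalling, fell by 0.33 ± 0.07 on the log2 scale, with a list median of 0.03 (0.0052 over all 15). Of 8 tested secreted inhibitors, 2 rose, 1 fell and 5 did not pass, with a median of 0.16, and of 0.042 over all 15 on the array. Sfrp2, a Wnt-binding protein of stromal cells, rose by 1.04 ± 0.16 on the log2 scale (8.64 and 8.72 in the controls, 9.42 and 10.02 in the knockouts). Igfbp4 rose by 0.32 ± 0.06, and Sostdc1, an inhibitor of Wnt and BMP signalling that binds the Lrp co-receptors, fell by 0.57 ± 0.06 (11.21 and 11.22 against 10.58 and 10.71).

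Genes known to respond to beta-catenin went both ways. Of 7 tested, 1 rose, 1 fell and 5 did not pass, with a median log2 difference of -0.07. Nkd1, a feedback inhibitor induced by Wnt signalling, rose by 0.81 ± 0.15 (8.08 and 8.43 in the controls, 8.91 and 9.22 in the knockouts; limma, adjusted p = 0.0105). The cyclin gene Ccnd1 fell by 0.36 ± 0.06. Axin2, the most used readout of the pathway, lay under the filter, at 8.06 and 7.88 for the control pools, against 7.92 and 7.95 for the knockout pools, so that its groups overlapped. Of 17 tested cytoplasmic and nuclear transducers 0 passed by limma, with a median of 0.0084. An unadjusted p under 0.05 was found for 1 of the 17, beside 3051 of all 11963 tested genes.

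Of 7 tested genes that accompany Lgr5 in stem cells of the gut, 1 rose, 1 fell and 5 did not pass, with a median of -0.08. The transporter gene Slc12a2 rose by 0.35 ± 0.08 (0.21 without control replicate 1) and Cdca7, a gene of dividing cells, fell by 0.54 ± 0.08. Of 6 tested genes of the protein C pathway, in which Procr acts, 1 rose and 5 did not pass, with a median of 0.43, and of 0.33 over all 8 on the array. Pros1, the gene of the cofactor protein S, rose by 0.66 ± 0.11 (9.52 and 9.63 in the controls, 10.06 and 10.41 in the knockouts). Thbd, the gene of thrombomodulin, which works beside the receptor on endothelium, differed by 0.52 ± 0.22 (limma, adjusted p = 0.162), and passed in 5 of 15 alternatives. It ranged from 0.21 without control replicate 1 to 0.84 without control replicate 2 (adjusted p = 0.0327), and it also passed without knockout replicate 1 (adjusted p = 0.00814), in the values as deposited with the filter (0.00666) and without it (0.0129), and with median centring (0.0297). Proc, the gene of protein C, differed by 0.36 ± 0.12 (limma, adjusted p = 0.0855), and by 0.24 without control replicate 1. It passed in the values as deposited, with the filter (adjusted p = 0.0245) and without it (0.0437). The control means of Thbd and of Tfpi, another tested gene of this list, lay under the filter level.

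Of the 12 pathway genes past the threshold, Sostdc1 was the 1 that passed in every alternative. Without the trend in the variance prior the other 11 did not pass, and without control replicate 1 Wnt4, Wnt6, Fzd4, Ror2, Igfbp4 and Nkd1 did not pass, nor did Wnt6 and Ror2 without control replicate 2. With median centring Fzd4 (adjusted p = 0.373), Ror2 (0.195) and Igfbp4 (0.212) did not pass. Without quantile normalization Ror2 missed the threshold (limma, adjusted p = 0.0566 with the filter and 0.081 with none), while Fzd4 passed (0.0186 and 0.0238). With quantile normalization and no filter Fzd4 did not pass (0.0562), and Slc12a2 did not pass with a robust prior (0.125).

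**Figure D3:**
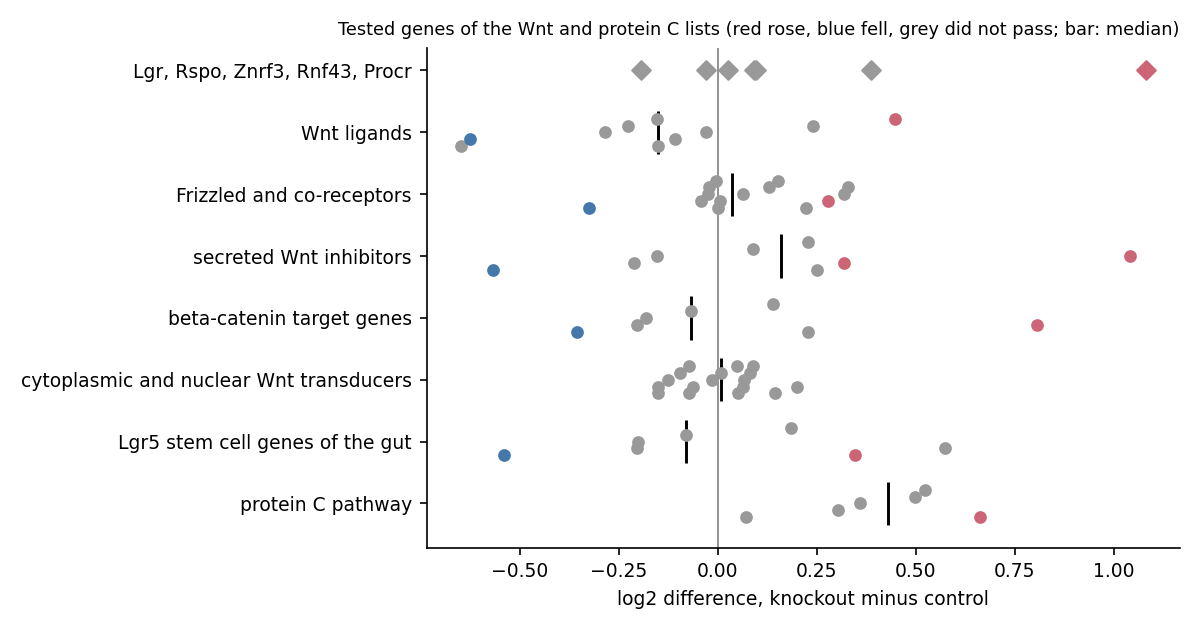
Log2 difference, knockout minus control, of every tested gene in the Wnt and protein C lists, with the receptors, ligands and ligases described here as diamonds in the top row. Red genes rose, blue genes fell, grey genes did not pass, and black bars are list medians, drawn for the lists. Lgr5 and Sfrp2 lie farthest to the right, and tested transducers lie close to 0.

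The 3 genes whose pattern over the 4 arrays was most like that of Lgr5 were Pdlim3, Sfrp2 and Emcn, by the root mean square difference of the log2 values after each gene's own mean was subtracted (0.039, 0.051 and 0.056). Pdlim3 encodes a muscle protein of the actin cytoskeleton, and Emcn an endothelial sialomucin. Pdlim3 rose by 1.02 ± 0.13 and Emcn by 1.02 ± 0.14 on the log2 scale, and none of the 3 passed without the trend. All 3 had knockout replicate 2 above knockout replicate 1, as Lgr5 had. With 4 arrays this likeness is a description.

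Markers of cells around the bud were higher in the same knockout arrays. Of 10 tested fibroblast markers 9 rose and 0 fell, with a median log2 difference of 1.13. Their summed linear signal was between 12104 and 12420 in the controls and between 24782 and 29937 in the knockouts. Lum, a matrix proteoglycan gene, rose by 1.94 ± 0.09 and Pdgfra by 1.62 ± 0.11. Of 10 endothelial markers 5 rose and 0 fell, with a median of 0.62 and a summed signal between 3492 and 4436 in the controls and between 5590 and 7174 in the knockouts. Emcn is among them, and Kdr, the gene of the VEGF receptor, rose by 0.88 ± 0.17 (not past the threshold without control replicate 1). The control means of Kdr, Tie1, Tek and Robo4 lay under the filter level, so that these 4 were tested through their knockout signal.

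Of 5 tested smooth muscle and pericyte markers 4 rose and 0 fell, with a median log2 difference of 0.72 over these and 0.21 over all 7 on the array. The summed signal of the whole list was between 14429 and 15604 in the controls and between 18266 and 21251 in the knockouts. Rgs5, a pericyte gene, rose by 0.87 ± 0.14 and the myosin gene Myh11 by 0.74 ± 0.12. Cnn1 rose by 0.72 ± 0.10 and Acta2 by 0.21 ± 0.05. Myoepithelial cells express Myh11, Cnn1 and Acta2 too, so this list does not stand for cells around the bud alone. Mcam differed by -0.03 ± 0.08 and did not pass (limma, adjusted p = 0.846). Cspg4 and Des lay under the filter, with log2 differences of 0.11 and 0.21. Of 5 tested adipocyte markers 4 rose and 0 fell, led by Lpl (0.98 ± 0.13) and Cd36 (0.64 ± 0.09), with a summed signal over the whole list between 3632 and 3842 in the controls and between 5053 and 5911 in the knockouts. The median was 0.58 over the tested markers and 0.27 over all 8 on the array. Plin1, a coat protein gene of lipid droplets, differed by -0.08 ± 0.15 and did not pass (limma, adjusted p = 0.767). Adipoq, Cidec and Lep lay under the filter, with log2 differences of 0.11, -0.015 and 0.016.

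Epithelial markers went both ways, and most did not pass. Of 12 basal markers 1 rose, 3 fell and 8 did not pass, with a median of -0.09. The summed signal of the basal list was between 23365 and 23917 in the controls and between 21590 and 25530 in the knockouts, which overlap. Tspan8, a tetraspanin that marks a quiescent subset of Lgr5-positive basal cells, rose by 0.36 ± 0.10. That call was lost without any 1 of control replicate 1, control replicate 2 and knockout replicate 2. The basal transcription factor gene Snai2 fell by 0.39 ± 0.09 (-0.24 without knockout replicate 1, and not past the threshold without control replicate 1), the Notch ligand gene Jag2 by 0.37 ± 0.07, and Trp63, named after its values were seen, by 0.36 ± 0.06 (not past the threshold without control replicate 1). Of 9 luminal markers 1 rose and 8 did not pass, with a median of 0.05 and a summed signal between 53346 and 55579 in the controls and between 56461 and 56849 in the knockouts. Pgr, the progesterone receptor gene, rose by 0.36 ± 0.08 (0.23 without control replicate 1, not past the threshold).

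No tested blood cell, nerve or skeletal muscle marker rose. Of 3 tested macrophage markers, with a median of -0.022 (0.11 over all 6), 1 fell, Lyz2, by 0.96 ± 0.24 (-1.46 without knockout replicate 1, -0.47 without knockout replicate 2, and not past the threshold without control replicate 2). Of 4 tested lymphocyte markers, with a median of -0.60 (-0.84 over the 5 on the array), Cd79b fell by 1.91 ± 0.22 and Ccr7 by 0.84 ± 0.12. The knockout mean of Cd79b (7.43) lay under the filter level, so Cd79b was tested through its control signal. The same held for the tested lymphocyte markers that did not pass. Alternatives are not given for Acta2, Cnn1 and Mcam. Among the other cell type markers named here, Lum, Pdgfra, Lpl, Cd79b and Ccr7 were those that passed without the trend. With median centring Tspan8, Jag2 and Trp63 did not pass, with a robust prior Pgr, Myh11 and Lyz2 did not, Tspan8 did not with no filter, and Lyz2 did not with the filter at the 60th percentile. Of the 2 tested nerve and 2 tested skeletal muscle markers 0 passed by limma. At an unadjusted p under 0.05 were 1 nerve and 0 muscle genes, beside 3051 of all 11963 tested genes. In buds measured whole, a change in the number of cells of a type and a change in RNA per cell cannot be told apart.

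Expressed relative to the mean level of each list's tested markers within the same array, the log2 difference of Lgr5 was -0.05 against fibroblast markers, 0.47 against endothelial, 0.58 against smooth muscle and pericyte, 0.57 against adipocyte, 1.17 against basal and 0.999 against luminal markers. Against the fibroblast mean, Lgr5 was at -0.07 and 0.07 in the controls and at -0.18 and 0.08 in the knockouts, and the groups overlapped. Against the basal mean it was at -0.08 and 0.08 in the controls and at 1.03 and 1.31 in the knockouts, and they did not overlap. The part of the stromal, vascular and smooth muscle cells in the Lgr5 and Procr differences was not tested.

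**Figure D4:**
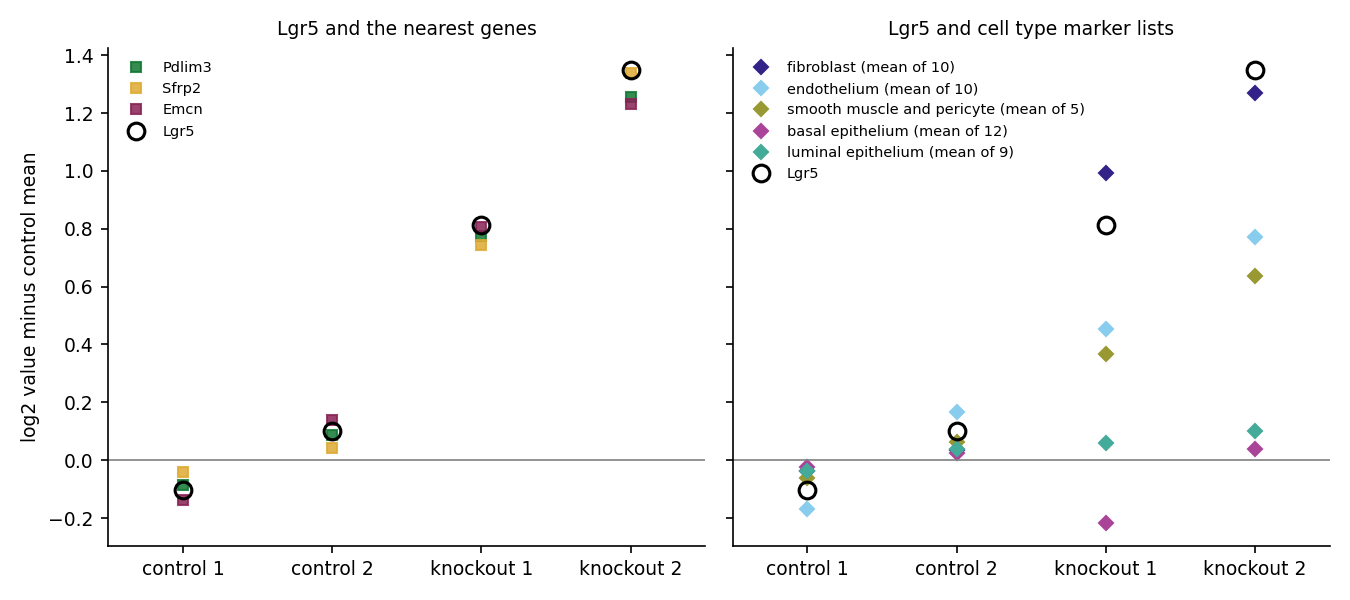
Log2 value of each array minus the control mean, for Lgr5 (open circles) and its 3 nearest genes on the left, and for Lgr5 and the mean of the tested markers of 5 cell types on the right. The fibroblast mean lies near Lgr5 in the knockout arrays, the endothelial and smooth muscle means lie at 0.37 to 0.77, and the basal and luminal means lie between -0.22 and 0.10.

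**Figure D5:**
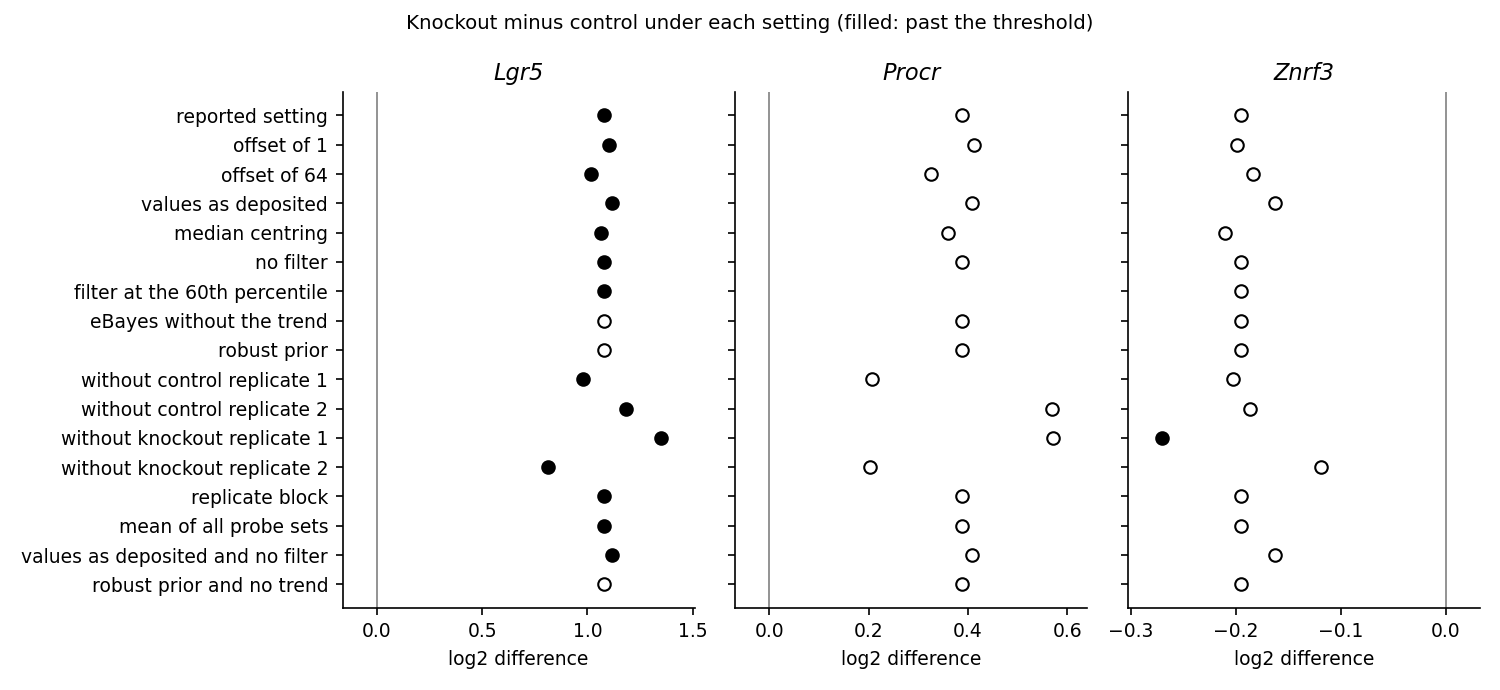
Log2 difference, knockout minus control, of Lgr5, Procr and Znrf3 under the reported setting and each alternative, with filled symbols where the adjusted p was under 0.05. Lgr5 stayed between 0.81 and 1.35 with 3 open symbols, all from changes to the variance prior, Procr had none filled, and Znrf3 had 1, without knockout replicate 1.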

How the data were processed

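The values are signal intensities as deposited, linear as far as the values show, for 35556 probe sets on each array. Affymetrix Expression Console 1.1.1 and PLIER 2.0 are named by the submitters' processing notes. Their settings, any background correction or normalization and the build were not given in the sources used here. Names came from the platform annotation (21789 with 1 gene symbol, 1621 with several, 12146 unnamed here), and the probe set with the highest mean was used for each gene.

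Values were taken as log2(signal + 16) and quantile normalized. Genes under the 40th percentile of the mean over all 4 arrays (log2 7.97, linear signal 235) were left out. The groups were compared with limma 3.58.1 in R 4.3.3 (lmFit, eBayes with trend, two-sided, Benjamini-Hochberg over 11963 genes, threshold 0.05, 2 residual and 7.58 prior degrees of freedom). The median SE was 0.084. The fit was tested on simulated data in which the noise of a gene depended on its mean signal alone. The simulation therefore could not test the choice of variance prior, on which the Lgr5 call depends. Precision is limited by 2 arrays per group.

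Genes and lists were chosen with earlier results of these data known. The text names the 10 genes, Ovol2, up to 3 genes past the threshold per direction in each pathway list (2 in each cell type list), and the 3 genes nearest to each called gene. Axin2, Thbd, Proc, Tfpi, Tie1, Tek, Robo4, Trp63, Plin1, Adipoq, Cidec, Lep, Acta2, Cnn1, Mcam, Cspg4 and Des were named outside that rule. Lists were described by counts. Alternatives changed the offset, normalization, filter, variance prior, probe set rule, replicates and pairing.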

Additional observations from a re-analysis of the deposited data

How the results depend on the processing

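The number of genes past the threshold over the whole table (1285) was 753 with median centring, 188 without the trend, 185 with a robust prior and no trend, and between 476 and 2347 with 1 array left out. The number of these 10 genes past it (1) was 0 without the trend, with a robust prior and with a robust prior and no trend. In these fits limma gave 1, 3 and 1 of them an unadjusted p under 0.05. In the reported fit 2 of the 7 tested genes had an unadjusted p under 0.05, beside 3051 of all 11963 tested genes. With the replicate number as a block (replicate block) 2246 genes passed, and Lgr5 stayed the 1 gene of the 10 past the threshold. The labels do not say that the numbers mark a shared litter or day, and the deviations of arrays with the same number correlated at -0.196 across genes. With the numbers crossed, 1203 genes passed, 1 of them among the 10. Of 110 values of the 7 tested genes under alternatives, 101 kept direction and side of the threshold, 3 lost a call, 1 gained one and 5 turned sign. The sign turned for Lgr6 without control replicate 1 (0.0068) and knockout replicate 1 (0.027), for Rspo1 without knockout replicate 2 (-0.045), and for Rnf43 without control replicate 1 (-0.024) and knockout replicate 2 (-0.0054). With 1 array left out, Lgr6 ranged from -0.090 to 0.027, Rspo1 from -0.045 to 0.23, Rnf43 from -0.024 to 0.076 and the adipocyte gene Plin1 from -0.17 to 0.0053 (above 0 without control replicate 1 and without knockout replicate 1). The cause was not tested. With values as deposited and no filter, and with a robust prior and no trend, both chosen after seeing the data along with the crossed numbers, the other genes of the 10 gained no call. Whether the dim signals of Rspo2, Rspo3 and Rspo4 exceed background is unknown.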
